A study of Mus musculus with 8 samples.

Results

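The guides against 6 genes of amino acid and lactate handling were followed in single T cells from mouse pancreatic tumours. The genes were Slc6a9, Slc5a12, Sds, Agxt2, Aspa and Azin2, each targeted by 3 guides. Cells were taken when exactly 1 guide was called, when that guide's name without its number was 1 of these 6 symbols, and when mitochondrial genes held at most 10% of the transcripts. These rules gave 1481 cells with 18 guides, out of 23337 cells with 276 guides against 83 targets and nontargeting controls, or 6.35% of the cells. The comparison group was the 2730 cells with 1 of 34 nontargeting guides (sgNT) in the same libraries.

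The cells were OT-I CD8+ T cells, whose transgenic receptor recognises an ovalbumin peptide, from Cas9 knock-in mice, so that every group, sgNT included, carried Cas9, the OT-I receptor and the lentiviral CROP-seq vector with its CD90.1 reporter. They were transferred into Cas9 knock-in mice with KPC_OVA tumours in the pancreas, a ductal adenocarcinoma line made to express ovalbumin, and were sorted by CD90.1 from the primary tumour 7 days later. The mice received anti-PD-1 in 3 libraries (replicates 1, 2 and 3) and control IgG in 1 library. The cells came from several mice per treatment and 2 independent experiments, and the labels do not assign mice or experiments to libraries. CROP-seq, the assay used, reads the transcripts and the guide of each cell together. The sample titles of replicates 1 and 2 share 1 identifier and differ only in a suffix, while replicate 3 and IgG each have their own. Nothing states that replicates 1 and 2 came from separate cultures or animals, so p-values, SDs and counts over 4 libraries measure the spread between these libraries, which may be technical for that pair. With 1 IgG library, a difference between treatments cannot be told apart from a difference between libraries. The 83 targets had been chosen by the study because their guides were enriched in an earlier pooled screen, which the values below did not use.

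Amino acids reach T cells through solute carriers, and inside the cell they feed nucleotide, protein and polyamine synthesis. Slc6a9 encodes GlyT1, a sodium and chloride-dependent glycine transporter, and Sds encodes serine dehydratase, a liver enzyme that turns serine into pyruvate and ammonia. Agxt2 encodes a mitochondrial aminotransferase of liver and kidney that uses glyoxylate and also handles beta-aminoisobutyrate and dimethylarginine. Aspa encodes aspartoacylase, which splits N-acetylaspartate into aspartate and acetate and is best known from the brain. Azin2 encodes antizyme inhibitor 2, which binds antizymes and so spares ornithine decarboxylase, the first enzyme of polyamine synthesis, from degradation. Slc5a12 encodes a sodium-coupled monocarboxylate transporter of low affinity for lactate, known from kidney and gut.

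The 18 guides are shown because each defines its group of cells and the place of the intended cut. Letters in lower case are the guide, read 5′ to 3′ from the study's published list of its CROP-seq library. The capitals after each guide are the NGG motif that Cas9 needs, read from the exon of the GRCm38 transcript. For Slc5a12_gRNA2 the motif lies beyond the end of the exon and was not read.
Slc6a9_gRNA1: atacctctgctatcgcaacgGGG
Slc6a9_gRNA2: gtagtacatgatacccgtgaAGG
Slc6a9_gRNA3: atggtggtgtccacatacatTGG
Slc5a12_gRNA1: aggtactcagtttgtcggagAGG
Slc5a12_gRNA2: cattatctacatcgtacaga
Slc5a12_gRNA3: atccaaggatcaaatcatgtTGG
Sds_gRNA1: ggtgttgggcacaacgatagTGG
Sds_gRNA2: tccactgacagctggcaacgCGG
Sds_gRNA3: tcaggctccttcaagatccgAGG
Agxt2_gRNA1: attggcagcctatcccaccaGGG
Agxt2_gRNA2: tcaggtgagaagtcacacggTGG
Agxt2_gRNA3: actgctgccaagctaaagaaCGG
Aspa_gRNA1: attcattaccaatccaagggCGG
Aspa_gRNA2: atacttggcaatggaacgagTGG
Aspa_gRNA3: agtgcaacccatgttagaagTGG
Azin2_gRNA1: ggcctatgcccagtccatcgCGG
Azin2_gRNA2: caaggctgagttaattactgAGG
Azin2_gRNA3: tctgtgcaacttgcttacagGGG

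All 18 intended cuts lay in coding exons of the principal transcript (GENCODE M21, GRCm38, the build of mm10, positions from 1). For Slc6a9, on the plus strand of chromosome 4 from 117834506 to 117875198, gRNA1 lay at chr4:117856006-117856025 (plus strand, exon 3 of 14), after 9.37% of the coding sequence. Its gRNA2 lay at chr4:117863768-117863787 (minus strand, exon 7), after 42.4%, and its gRNA3 at chr4:117857220-117857239 (plus strand, exon 5), after 18.6%. For Slc5a12, on the plus strand of chromosome 2 from 110597298 to 110647779, gRNA1 was the latest cut of the set. It lay at chr2:110624211-110624230 (minus strand, exon 9 of 15), after 60.2% of the coding sequence. The Slc5a12 gRNA2 site was chr2:110605768-110605787 (plus strand, exon 2), after 21.5%, and the gRNA3 site chr2:110616749-110616768 (plus strand, exon 5), after 33.2%.

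For Sds, on the plus strand of chromosome 5 from 120476526 to 120483932, the cuts fell early. Its gRNA1 lay at chr5:120480633-120480652 (minus strand, exon 4 of 8), after 25.8% of the coding sequence, and gRNA3 at chr5:120479189-120479208 (plus strand, exon 2), after 12.7%. The site of Sds_gRNA2, chr5:120480565-120480584 (plus strand), straddled the start of exon 4 with 9 of its 20 bases in coding sequence, and its cut came after 20.3%. For Agxt2, on the plus strand of chromosome 15 from 10358532 to 10410153, gRNA1 lay at chr15:10380675-10380694 (minus strand, exon 6 of 14), after 40.2%. Agxt2_gRNA2 lay at chr15:10371658-10371677 (minus strand, exon 2), after 9.06%, a site that the annotation also assigns to the overlapping locus Gm21973. Agxt2_gRNA3 lay at chr15:10388187-10388206 (plus strand, exon 8), after 53.4%.

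For Aspa, on the minus strand of chromosome 11 from 73304992 to 73329596, gRNA1 lay at chr11:73324322-73324341 (minus strand, exon 1 of 6), after 17.4% of the coding sequence. Aspa_gRNA2 lay at chr11:73319802-73319821 (plus strand, exon 3), after 53.3%, and Aspa_gRNA3 at chr11:73322143-73322162 (plus strand, exon 2), after 37.9%. For Azin2, on the minus strand of chromosome 4 from 128930233 to 128962442, gRNA1 lay at chr4:128948905-128948924 (minus strand, exon 7 of 11), after 46.3%. Azin2_gRNA2 lay at chr4:128947592-128947611 (plus strand, exon 8), after 55.4%, and Azin2_gRNA3 at chr4:128950691-128950710 (plus strand, exon 5), after 24.98%. No transcript of another gene held a site with up to 2 mismatches and an NGG motif for any guide, apart from Gm21973. Only transcripts were searched, so sites elsewhere in the genome were not covered. GC content ran from 35% in Slc5a12_gRNA2 and Slc5a12_gRNA3 to 65% in Azin2_gRNA1.

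The 4 libraries held 147911528, 148163269 and 155974184 transcript counts (UMIs) under anti-PD-1 (replicates 1, 2 and 3) and 142945121 in the IgG library. The median cell with a guide of the set had 17058, 15907.5 and 11986 UMIs under anti-PD-1 and 6054 in IgG, close to sgNT cells at 17583, 16966, 12302.5 and 6348. The labelled cell type was checked with 11 T cell genes such as Cd8a, Cd3e and Trac. Each was detected in 85.2% to 100% of the cells of the set in the anti-PD-1 libraries, and in 70.0% to 99.4% in IgG. Markers of other cell types reached 10 UMIs in 26 of the 1481 cells, or in 119 when the natural killer and gamma delta T cell list was counted too. In replicates 1, 2, 3 and IgG, the first count was 3.31%, 2.47%, 2.92% and 0.55% of the set. In sgNT it was 1.86%, 1.06%, 1.62% and 0.78%. The second count was 29 of 181, 25 of 162, 51 of 411 and 14 of 727 cells of the set. In sgNT it was 70 of 323, 84 of 379, 121 of 742 and 35 of 1286. Between libraries, 3 to 20 cell barcodes were shared, and for 0 of them were both cells of the set.

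To ask whether the targets were present in these T cells, their own transcripts were counted first. Transcripts of 3 of the 6 targets, Slc5a12, Sds and Agxt2, were not found in any of the 23337 cells, with 0 UMIs. Aspa had 10 UMIs in 3 cells, of which 1 cell held 8, and Azin2 had 6 UMIs in 6 cells. None of these Aspa and Azin2 UMIs lay in the cells with the matching guides or in sgNT cells. Slc6a9 was the only target detected in sgNT cells, with 6 UMIs in 6 of 2730 cells, 0.220% (exact 95% interval 0.0807 to 0.478).

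Among all cells without its guides, Slc6a9 had 62 UMIs in 58 of 23029 cells, 0.252% (exact 95% interval 0.191 to 0.325). In the 308 cells with an Slc6a9 guide it had 0 UMIs, which allows a level of up to 0.807 CPM, the count scaled to a common library total, and a share of up to 0.974% of cells. Its level in sgNT cells was 0.182 CPM, below that limit, so a loss of Slc6a9 transcripts was not detectable at this depth. Intervals and limits cover counting error only. The transcripts therefore gave no check of any of the 6 knockouts, and a guide-induced mutation need not lower the transcript in any case.

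Next, the number of cells with each guide was compared, since a target that affects expansion or entry into the tumour would shift it. The samples hold none from before transfer. Such a shift therefore cannot be told apart from unequal guide numbers in the transferred cells. Cells with the 6 targets made up 7.09%, 6.19% and 6.29% of the cells in the 3 anti-PD-1 libraries and 6.25% in IgG, so the set as a whole kept its share. A guide of the set had 10.1, 9, 22.8 and 40.4 cells on average, and an sgNT guide 9.50, 11.1, 21.8 and 37.8. Of the 18 guides, 6, 5, 8 and 8 exceeded the sgNT mean in the 4 libraries.

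Within targets the guides were unequal. Slc6a9_gRNA2 had 43, 44 and 19 cells in the 3 anti-PD-1 libraries and 40 with IgG, or 4.53, 3.95, 0.87 and 1.06 times the sgNT mean. It was among the 7 most abundant of all guides in replicates 1 and 2 and ranked 157 and 128 in the other libraries. Slc6a9_gRNA1 went the other way, with 5, 2, 28 and 54 cells, and Slc6a9_gRNA3 had 8, 8, 17 and 40. Thus 76.8% and 81.5% of the sgSlc6a9 cells of replicates 1 and 2 came from 1 guide.

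The same held for other targets with different libraries. Azin2_gRNA1 had 14, 11 and 62 cells under anti-PD-1 and 44 in IgG, and was 6th of all guides in replicate 3 at 2.84 times the sgNT mean. Azin2_gRNA2 had 7, 8, 12 and 24 cells and Azin2_gRNA3 8, 5, 14 and 22. Slc5a12_gRNA2 had 11, 12, 34 and 81 cells and was 12th in IgG at 2.14 times the sgNT mean, while Slc5a12_gRNA3 with 22, 16, 20 and 28 cells led in replicates 1 and 2, and Slc5a12_gRNA1 had 9, 8, 12 and 29. Agxt2_gRNA1 had 13, 13, 21 and 75 cells, against 6, 1, 23 and 17 for Agxt2_gRNA2 and 1, 1, 13 and 28 for Agxt2_gRNA3. No target had 3 guides that stood together above or below the sgNT mean in all 4 libraries.

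The guides of Sds and 2 of the 3 guides of Aspa had fewer cells than the sgNT mean in replicates 1 and 2. Sds_gRNA1 had 5, 4, 22 and 36 cells, Sds_gRNA2 7, 3, 29 and 56, and Sds_gRNA3 3, 3, 12 and 34. Aspa_gRNA1 was not seen in replicate 1, where a count of 0 allows up to 0.118% of cells, and had 2, 28 and 35 cells in replicate 2, replicate 3 and IgG. Aspa_gRNA2 was more even, with 12, 16, 27 and 47 cells, or 1.26, 1.44, 1.24 and 1.24 times the sgNT mean, and Aspa_gRNA3 had 7, 5, 18 and 37.

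Averaged over its guides and set against sgNT within each library, sgSlc6a9 was the most abundant of the 6. Its log2 ratios of cells per guide were 0.97, 0.69 and -0.03 in the 3 anti-PD-1 libraries and 0.24 in IgG, a mean of 0.47 ± 0.45 (SD, n = 4), 10th highest of 83 targets. For sgSlc5a12 the ratios were 0.56, 0.11, 0.01 and 0.28, above 0 in 4 of 4 libraries, with a mean of 0.24 ± 0.24 (SD, n = 4). For sgSds they were -0.93, -1.74, -0.06 and 0.15 and for sgAgxt2 -0.51, -1.16, -0.20 and 0.08, so that both were lowest in replicates 1 and 2. Their means were -0.64 ± 0.87 and -0.45 ± 0.53 (SD, n = 4), at positions 66 and 61. The means of sgAspa and sgAzin2 were -0.22 ± 0.39 and -0.09 ± 0.40 (SD, n = 4). The most frequent nontargeting guide of a library held 19.5% and 27.7% of the sgNT cells in replicates 1 and 2, and it enters the sgNT mean. Against the median over nontargeting guides instead, the means were 0.69 for sgSlc6a9, 0.47 for sgSlc5a12, -0.42 for sgSds, -0.22 for sgAgxt2 and 0.14 for sgAzin2, which changed sign, and that of sgAspa came close to 0. Over 4 libraries a two-sided exact test cannot reach a p of 0.05, so none was run.

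Cell numbers per guide were most alike between replicates 1 and 2. Over the 18 guides, Pearson's r of log2(cells + 1) was 0.84 between replicates 1 and 2 and 0.52 between replicate 3 and IgG, against 0.12 to 0.34 for the other pairs. The 34 nontargeting guides gave 0.71 and 0.36, against 0.01 to 0.17. These values describe guides that share 1 vector pool and are not independent replicates. In a test of guide numbers between anti-PD-1 and IgG by edgeR's quasi-likelihood method, 0 of 276 guides passed an adjusted p of 0.05, 0% of all guides. At an unadjusted p under 0.05 there were 9 guides, of which 0 were among the 18, and no second tool was run. That number was 2 without replicate 1, 0 without replicate 2 and 59 without replicate 3, when 5 of the 18 guides were among them, and no guide passed the adjusted threshold in any of these. Without replicate 3, Slc6a9_gRNA2 was at 2.28 ± 0.29 (SE) with an edgeR adjusted p of 0.21. Slc6a9_gRNA2 had a log2 ratio of anti-PD-1 over IgG of 1.80 ± 1.34 (SE) with an edgeR adjusted p of 0.99. With the pair of replicates 1 and 2 as a batch term, which leaves 1 residual degree of freedom, that ratio was -0.24 ± 0.34.

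To ask which genes differed in cells with each target, counts were summed per target and library and tested against sgNT by edgeR's quasi-likelihood method over 10020 genes. In sgSlc6a9, sgSlc5a12, sgSds, sgAspa and sgAzin2, 0 genes passed an adjusted p of 0.05, 0% of the genes tested. In sgAgxt2, 1 gene passed, 0.00998% of the genes tested. At an unadjusted p under 0.05 there were 412 genes in sgSlc6a9, 396 in sgSlc5a12, 464 in sgSds, 396 in sgAgxt2, 538 in sgAspa and 418 in sgAzin2, together 4.36% of 60120 tests. DESeq2 called 1 gene in sgSlc5a12, 1 in sgSds and 0 in the other 4 targets. The median SE of a log2 difference was 0.20 to 0.24, and the median difference over all genes lay between -0.02 and 0.00 in each target. All 6 comparisons use the same sgNT cells, so that their results are not independent of each other.

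The gene called in sgAgxt2 was Wnt4 (ENSMUSG00000036856), a secreted Wnt ligand. It had 3, 1, 4 and 3 UMIs in sgAgxt2 cells of anti-PD-1 replicates 1, 2, 3 and IgG, and 3, 1, 4 and 1 in the far more numerous sgNT cells. Its level was 6.75, 3.24, 5.33 and 3.91 CPM against 0.487, 0.140, 0.382 and 0.109 CPM, higher in 4 of 4 libraries without overlap. The log2 difference was 3.59 ± 0.70 (SE) with an edgeR adjusted p of 0.00589. All 11 UMIs came from 8 of 212 cells, 1 of which held 3 UMIs or 27.3%, and they were spread over gRNA1, gRNA2 and gRNA3 with 4, 5 and 2. The call rested on each library, since 0 genes passed when any 1 of the 4 was left out. DESeq2 did not make it, and without a filter on low counts the edgeR adjusted p was 0.098.

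The next genes in sgAgxt2 did not pass. Ring1, a ubiquitin ligase of Polycomb complexes, was at 29.3, 29.2, 28.0 and 26.1 CPM against 15.4, 17.4, 16.8 and 18.7 CPM in sgNT. Its log2 difference was 0.70 ± 0.20 (SE), higher in 4 of 4 libraries, with an edgeR adjusted p of 1. For Tjp1, a tight junction scaffold, 9 of the 12 UMIs lay in 1 cell.

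In sgSlc5a12, Ahr (ENSMUSG00000019256), the receptor for aryl hydrocarbons and tryptophan metabolites, was at 54.0, 49.4 and 27.1 CPM under anti-PD-1 and at 23.1 CPM with IgG. In sgNT it was at 26.5, 24.5, 19.5 and 12.1 CPM. It was higher in 4 of 4 libraries, with a log2 difference of 0.86 ± 0.21 (SE) and an edgeR adjusted p of 0.26. It was the gene that DESeq2 called in this target. By guide, Ahr stood at 21.3, 45.0 and 35.3 CPM for gRNA1, gRNA2 and gRNA3, so that gRNA1 was near the 19.8 CPM of all sgNT cells. Mcoln1, a lysosomal calcium channel, had 3 UMIs in 282 cells against 172 in sgNT, a log2 difference of -2.36 ± 0.55 (SE) with an edgeR adjusted p of 0.26. It was lower in 4 of 4 libraries, at 0 to 1.77 CPM against 4.49 to 5.79 CPM. Of the 13 UMIs of Trav13-1, a T cell receptor segment, 11 came from gRNA3.

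In sgSlc6a9, Mtus2, a microtubule-associated protein, was at 9.79, 9.23, 3.36 and 2.13 CPM against 0.975, 1.12, 1.72 and 1.86 CPM in sgNT. It was higher in 4 of 4 libraries, with a log2 difference of 2.03 ± 0.49 (SE) and an edgeR adjusted p of 0.39. The difference was concentrated in replicates 1 and 2, the libraries in which gRNA2 dominated, and 17 of the 23 UMIs came from that guide. Tcrg-C2, a gamma chain constant segment of the T cell receptor, had 86 of its 94 UMIs in gRNA2 cells, and Id3, a regulator of memory and precursor exhausted cells, 29 of 49 in gRNA3 cells. Their log2 differences were 1.63 ± 0.42 and 1.39 ± 0.36 (SE), each with an edgeR adjusted p of 0.47. Without anti-PD-1 replicate 3, Tcrg-C2 passed with an edgeR adjusted p of 0.00234. The natural killer and gamma delta list stood at 71.4, 86.5, 219.6 and 223.1 CPM in sgSlc6a9 and 178.9, 207.0, 233.0 and 198.4 CPM in sgNT, with 4 to 5 of its 8 genes detected in sgSlc6a9 in each library. The source of the Tcrg-C2 UMIs was not tested.

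In sgSds, Aspm, a spindle protein of dividing cells, was at 76.8, 79.8, 47.1 and 57.9 CPM against 35.4, 28.3, 29.8 and 29.5 CPM in sgNT. It was higher in 4 of 4 libraries, with a log2 difference of 0.89 ± 0.26 (SE) and an edgeR adjusted p of 1, and it was the gene that DESeq2 called. Its level was 60.4, 69.1 and 30.8 CPM for gRNA1, gRNA2 and gRNA3. The smallest p in sgSds belonged to Rpl39l, a ribosomal protein paralog, whose 22 UMIs all lay in 3 gRNA2 cells of replicate 1 (edgeR adjusted p 0.10), so that sgSds had 0 UMIs of it in the other libraries. Of the 43 UMIs of Il10, a suppressive cytokine, 32 lay in 1 cell.

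In sgAspa, Lmtk2, a membrane kinase, and Ms4a4c, a membrane protein of lymphocytes, were higher than sgNT in 4 of 4 libraries. Lmtk2 was at 13.9, 26.1, 13.5 and 10.99 CPM against 7.15, 7.56, 7.26 and 6.22 CPM, a log2 difference of 1.09 ± 0.28 (SE). Ms4a4c was at 27.8, 30.8, 18.02 and 26.1 CPM against 7.15, 6.44, 9.08 and 19.6 CPM, a log2 difference of 1.13 ± 0.30 (SE). Chaf1a, a chaperone that places histones on newly replicated DNA, was lower in 4 of 4 libraries. It stood at 19.5, 21.3, 20.3 and 12.4 CPM against 35.1, 34.9, 31.5 and 33.4 CPM, a log2 difference of -0.90 ± 0.24 (SE). Over the 4 libraries the levels of Lmtk2 and Chaf1a did not overlap with those of sgNT, while Ms4a4c in replicate 3 lay below sgNT in IgG. The edgeR adjusted p was 0.61 for each.

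In sgAzin2, Unkl, a zinc finger protein, was at 12.5, 16.3, 18.6 and 13.3 CPM against 6.82, 4.62, 10.8 and 8.84 CPM in sgNT, a log2 difference of 0.91 ± 0.25 (SE) with an edgeR adjusted p of 1. All 10 UMIs of Idi2, an isomerase of isoprenoid synthesis, lay in 2 cells. Gzme, a granzyme of strongly stimulated cells, had 0 UMIs in 231 sgAzin2 cells, while its 1148 UMIs in sgNT lay in 42 of 2730 cells. A count of 0 allows up to 1.30% of sgAzin2 cells, and 1.54% of sgNT cells had a UMI, so the 0 is close to what this number of cells can resolve. Its fitted difference has no lower bound from these data and is not given.

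The pathway around each target was read through lists that hold its neighbours. No gene of any of these lists passed the test. Around glycine and serine, 15 of the 21 listed genes were expressed highly enough to test. Phgdh, the first enzyme of serine synthesis, was at 167, 174, 133 and 147 CPM in sgSlc6a9 against 175, 184, 144 and 151 CPM in sgNT, a log2 difference of -0.08 ± 0.12 (SE). Psat1 and Psph, the next 2 enzymes, differed by -0.06 ± 0.16 and -0.03 ± 0.12 (SE) there, and Shmt2, which makes glycine in mitochondria, by -0.22 ± 0.17 (SE). The median of the 15 genes in sgSlc6a9 was -0.08, beside 0.00 over all genes.

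For sgSds the same 15 genes had a median of -0.22, beside -0.02 over all genes, and 13 lay below 0. Tyms, which makes thymidylate, had the smallest p, with a log2 difference of -0.50 ± 0.22 (SE) and an edgeR adjusted p of 1. The summed level of the list was 576, 494, 614 and 727 CPM in sgSds against 821, 827, 663 and 687 CPM in sgNT, lower in 3 of 4 libraries. The low values came from the 15 and 10 cells of replicates 1 and 2. The list was not low in sgSds alone. In sgAspa and sgAzin2 it was below sgNT in 4 of 4 libraries, with means of -0.19 ± 0.11 and -0.13 ± 0.09 (SD, n = 4). The median over its tested genes was -0.19 in sgAspa and -0.13 in sgAzin2. Sdsl, the paralog of Sds, and Slc6a5, the other glycine transporter of this family, had 0 UMIs in sgNT.

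Around lactate, 9 of 15 listed genes were tested in sgSlc5a12. Slc16a1 and Slc16a3, the proton-coupled lactate carriers MCT1 and MCT4, differed by 0.26 ± 0.19 and -0.05 ± 0.19 (SE) on the log2 scale, and Ldha, lactate dehydrogenase A, by -0.04 ± 0.10 (SE). Emb, a chaperone of monocarboxylate carriers, was at 217, 150, 84.4 and 99.0 CPM against 133, 122, 59.3 and 78.7 CPM in sgNT. It was higher in 4 of 4 libraries, with a log2 difference of 0.47 ± 0.18 (SE) and an edgeR adjusted p of 1. Slc5a8, the sodium-coupled carrier of high affinity, and Slc16a7 had 0 UMIs in sgNT.

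Around polyamines, 13 of 18 listed genes were tested in sgAzin2. Odc1, the decarboxylase that antizyme inhibitors spare, was at 168, 151, 100.3 and 158 CPM against 168, 152, 113 and 125 CPM in sgNT, a log2 difference of 0.01 ± 0.16 (SE). Azin1, the expressed paralog, was at 75.1, 65.2, 43.6 and 47.3 CPM against 49.6, 44.0, 47.0 and 47.4 CPM, a difference of 0.20 ± 0.13 (SE). Oaz1, the main antizyme, differed by -0.01 ± 0.06 (SE), the most precise value of the list, and Dhps, which uses spermidine to modify eIF5A, by 0.31 ± 0.15 (SE).

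Around aspartate, 11 of 18 listed genes were tested in sgAspa. Got2, the mitochondrial aspartate aminotransferase, was at 75.2, 64.0, 69.8 and 75.6 CPM against 92.5, 89.2, 95.2 and 91.2 CPM in sgNT. It was lower in 4 of 4 libraries without overlap, with a log2 difference of -0.37 ± 0.13 (SE) and an edgeR adjusted p of 0.74. Got1, the cytosolic form, differed by 0.02 ± 0.18 (SE), and Asl, argininosuccinate lyase, by 0.38 ± 0.18 (SE). Nat8l, which makes N-acetylaspartate, and Folh1, which releases it, had 0 UMIs in sgNT, as did Aspa itself. Around beta-alanine and glyoxylate, only 5 of 16 genes were tested in sgAgxt2. They included Gpt, alanine aminotransferase, at 0.75 ± 0.39 (SE), and Prmt1, the main arginine methyltransferase, at -0.08 ± 0.13 (SE). Agxt, another aminotransferase gene of the list, had 0 UMIs in sgNT.

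To place the targets among T cell states, 12 genes of exhaustion, effector function, memory and division were read in each target. Of the 72 tests, 0 passed and 4 had an unadjusted p under 0.05 by edgeR, beside 4.36% of the tests over all genes in the 6 targets. The inhibitory receptors were measured most precisely. Havcr2, which encodes TIM-3, lay at most 0.11 above sgNT on the log2 scale, in sgSds, with SE of 0.13 to 0.14 over the 6 targets. Pdcd1, which encodes PD-1, ranged from -0.16 ± 0.11 (SE) in sgSds to 0.21 ± 0.11 (SE) in sgAspa and 0.21 ± 0.11 (SE) in sgAzin2.

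The precursor genes Tcf7 and Slamf6 lay between -0.08 and 0.77 and between -0.14 and 0.41, with their highest values in sgAspa (Tcf7, 0.77 ± 0.43) and sgSds (Slamf6, 0.41 ± 0.22, SE). Klf2, a factor of memory and tissue egress, ranged from -0.36 to 0.66 and Mki67, a marker of division, from -0.18 to 0.22. Among effector genes, Prf1 was lowest in sgAspa at -0.41 ± 0.26 (SE), and Gzmb ranged from -0.40 to -0.04, Ifng from -1.06 to 0.56, Tnf from 0.06 to 0.43 and Ccl3 from -0.51 to 0.49. Gzmc, a granzyme that few cells express at high levels, ranged from -2.58 ± 1.20 (SE) in sgAzin2 to 1.81 ± 0.72 (SE) in sgSlc6a9. In sgSlc6a9, 1 of the 27 cells with a UMI held 39.7% of its Gzmc.

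Genes of DNA replication (G1/S) were low in 3 of the 6 targets. In sgAspa, 0 of 16 genes lay above sgNT and the median log2 difference was -0.36, beside -0.01 over all genes. There were 6 genes with an unadjusted p under 0.05 in edgeR, among them Mcm3, a subunit of the replicative helicase, at -0.47 ± 0.17 (SE), Pcna, the sliding clamp, at -0.27 ± 0.14 (SE), and Ung, uracil glycosylase, at -0.68 ± 0.31 (SE). In sgSlc5a12 the median was -0.30, 2 of 16 genes lay above sgNT and 7 genes had such a p, among them Mcm4 at -0.45 ± 0.16, Pcna at -0.36 ± 0.13 and Mcm7 at -0.45 ± 0.17 (SE). In sgSds the median was -0.29, 0 of 16 lay above sgNT and 2 had such a p. Over all genes, 5.37%, 3.95% and 4.63% had such a p in sgAspa, sgSlc5a12 and sgSds. None passed an adjusted p of 0.05, and genes of the cell cycle rise and fall together from cell to cell, so that their number is not a number of independent results.

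The summed G1/S level was 1492, 1203 and 1122 CPM in sgAspa under anti-PD-1, and with IgG it was 1081 CPM. It was 1241, 1148, 1138 and 1335 CPM in sgSlc5a12 and 1091, 1217, 1207 and 1418 CPM in sgSds, against 1580, 1628, 1368 and 1457 CPM in sgNT. Each of the 3 targets was below sgNT in 4 of 4 libraries, as were 10 of the 70 targets with enough cells. The mean log2 ratios were -0.31 ± 0.17, -0.31 ± 0.16 and -0.29 ± 0.22 (SD, n = 4), in sgAspa, sgSlc5a12 and sgSds, at positions 69, 70 and 68 of 70 targets ordered from the highest. Over these 70 targets, all set against the same sgNT cells, the median was -0.05 and the SD 0.11. In sgSlc6a9 the levels were 1802, 1824, 1573 and 1311 CPM, above sgNT in the anti-PD-1 libraries and below it in IgG. In sgSlc5a12, the CD4 or regulatory T cell list and the tumour epithelial list were below sgNT in 4 of 4 libraries, with means of -0.27 ± 0.20 and -0.76 ± 0.72, and the endothelial list above it, at 0.51 ± 0.55 (SD, n = 4). Without cells that had 10 UMIs of another type's markers, the natural killer list included, the G1/S mean of sgSlc5a12 was -0.32.

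The guides of these targets differed in how low they were. Aspa_gRNA1, Aspa_gRNA2 and Aspa_gRNA3 had mean log2 ratios of -0.80, -0.22 and -0.38, below sgNT in every library with 5 or more cells. In IgG, Aspa_gRNA1 was at 793 CPM in 35 cells, a log2 ratio of -0.88, below the range of the 34 single nontargeting guides there, which ran from -0.48 to 0.51. Of the 62 pairs of guide and library with enough cells, 1 lay above and 6 below the nontargeting range for this list. The Slc5a12 guides were at -0.35, -0.42 and -0.26, with gRNA1 and gRNA3 each above sgNT in 1 of 4 libraries. The Sds guides were at -0.10, -0.45 and -0.83, with gRNA1 above sgNT in 2 of 3 libraries and gRNA3, which had enough cells in 2 libraries, at 0.0836 in IgG. Sds_gRNA3 was at 407 CPM in 12 cells of replicate 3, a log2 ratio of -1.75, where the nontargeting guides ran from -0.91 to 0.72. In those same 12 cells the precursor exhausted list was at 2.16 above sgNT and the mitosis list at -3.74, each outside the range of the nontargeting guides, as were 7 and 5 of the 62 pairs for these lists, and 37.5% of the precursor UMIs came from 1 cell. The 2 other Sds guides were within that range for all 3 lists in replicate 3.

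Mitotic genes (G2/M) were high in sgSds. They were at 2428, 1964, 1918 and 2293 CPM against 1764, 1644, 1692 and 1730 CPM in sgNT, a mean log2 ratio of 0.33 ± 0.13 (SD, n = 4), above sgNT in 4 of 4 libraries and highest of 70 targets, whose median was -0.24. In sgAspa the mean was -0.28 ± 0.39 (SD, n = 4) and in sgSlc5a12 0.01 ± 0.34 (SD, n = 4). Ccnb1, Ube2c and Cenpf, which act in mitosis, were at 0.66 ± 0.26, 0.78 ± 0.32 and 0.64 ± 0.30 (SE) on the log2 scale, with an edgeR adjusted p of 1 each. In replicate 2, however, 1 of the 10 sgSds cells held 48.7% of the list's UMIs. Without cells that had 10 UMIs of another type's markers, the natural killer list included, the ratio there was -3.12 and the mean -0.59. The natural killer and gamma delta list stood at 354 CPM in the sgSds cells of replicate 2 against 207 CPM in sgNT, but below sgNT in the 3 other libraries, with a mean log2 ratio of -0.09 ± 0.59 (SD, n = 4). The macrophage and the CD4 or regulatory T cell lists were above sgNT in 4 of 4 libraries in sgSds, with means of 0.44 ± 0.38 and 0.40 ± 0.40 (SD, n = 4), on 3 to 17 and 6 to 27 UMIs per library. The part of these markers in the mitotic value was not tested.

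Inhibitory receptors and other exhaustion genes were slightly higher in 2 targets. In sgAspa their summed level was 1863, 1876, 2061 and 1522 CPM against 1667, 1681, 1744 and 1421 CPM in sgNT, a mean log2 ratio of 0.16 ± 0.06 (SD, n = 4). In sgSlc5a12 it was 1815, 2010, 1747 and 1703 CPM, a mean of 0.16 ± 0.12 (SD, n = 4). Both were above sgNT in 4 of 4 libraries, as were 9 of 70 targets, and stood at positions 2 and 3 of 70 targets. Of the 12 genes, 0 passed in either target. Nr4a2, a factor induced by receptor signalling, was at 0.46 ± 0.19 (SE) in sgAspa with an edgeR adjusted p of 0.88. Slc5a12_gRNA2, with 81 cells in IgG, was at 0.33 there and outside the nontargeting range of -0.33 to 0.29, with Pdcd1 at 0.59. Of the 62 pairs of guide and library with enough cells, 5 lay above and 1 below that range for the list, and 5 above and 2 below for Pdcd1. Slc5a12_gRNA3 in replicate 3 had Havcr2 at -1.08, below the nontargeting range.

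The precursor exhausted list varied most. In sgAspa it was at 5160, 4463, 2253 and 3675 CPM against 2706, 3463, 2164 and 2971 CPM, above sgNT in 4 of 4 libraries with a mean log2 ratio of 0.42 ± 0.37 (SD, n = 4). In replicate 2, 1 cell held 53.7% of it. In sgAgxt2 it was at 2001, 1534, 1939 and 2752 CPM, below sgNT in 4 of 4 libraries with a mean of -0.47 ± 0.49, and in sgSlc6a9 the mean was -0.49 ± 0.62 (SD, n = 4). Of 70 targets, 4 were above and 2 below sgNT in every library for this list. The median over its 12 genes was 0.11 in sgAspa and -0.06 in sgAgxt2, beside -0.01 over all genes in each.

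Effector cytokines and chemokines were at 12785, 27186, 12817 and 9139 CPM in sgSlc5a12 against 11077, 13294, 13947 and 9082 CPM in sgNT. The log2 ratios were 0.21, 1.03, -0.12 and 0.01, so that replicate 2 stood apart. There Slc5a12_gRNA2 and Slc5a12_gRNA3, with 12 and 16 cells, were at 1.40 and 1.20, above every nontargeting guide, with Ccl3, a chemokine of activated cells, at 1.98 and 1.41. Of the 62 pairs of guide and library, 3 lay above and 1 below the nontargeting range for the list, and 5 above it for Ccl3. In these guides 1 cell held 37.0% and 32.9% of the list's UMIs, and 1 cell held 42.9% and 54.3% of the Ccl3 UMIs. Slc5a12_gRNA1, with 8 cells in replicate 2, lay within the nontargeting range for the list. In sgSds the ratios were -0.40, -0.93, -0.20 and -0.05. The cytotoxic granule list was above sgNT in 4 of 4 libraries in sgSlc6a9, with a mean of 0.12 ± 0.11 (SD, n = 4), and below it in 4 of 4 in sgAgxt2 and sgAzin2, with means of -0.14 ± 0.11 and -0.15 ± 0.08 (SD, n = 4). Without cells that had 10 UMIs of another type's markers, the natural killer list included, the mean in sgAgxt2 was -0.27. The median over the 12 granule genes was 0.20 in sgSlc6a9, -0.23 in sgAgxt2 and -0.49 in sgAzin2. In sgAzin2, 2 of them lay above 0, and 4 were lower with an unadjusted p under 0.05 in edgeR. Over all genes, 4.17% had such a p in sgAzin2, and no granule gene passed. The median over 70 targets was -0.09 for this list, and 19 targets were below sgNT in every library. In sgSlc6a9 the dendritic cell marker list was below sgNT in 4 of 4 libraries, with a mean of -0.91 ± 1.09 (SD, n = 4).

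No gene of the amino acid starvation, glycolysis or amino acid transport lists passed the test in any of the 6 targets. Their mean log2 ratios ran from -0.12 in sgSds to 0.06 in sgSlc5a12 for starvation, from -0.13 in sgAspa to 0.03 in sgSds for glycolysis and hypoxia, and from -0.06 to 0.11 for transporters. In sgAzin2, glycolysis and hypoxia genes had a mean of -0.12 ± 0.05 and starvation genes one of -0.11 ± 0.05 (SD, n = 4), each below sgNT in 4 of 4 libraries, as were 6 and 3 of 70 targets for these lists. The tumour epithelial and dendritic cell marker lists were also below sgNT in 4 of 4 libraries in sgAzin2, at -1.26 ± 0.46 and -0.93 ± 0.47 (SD, n = 4), on 2 to 4 and 5 to 25 UMIs per library. Without cells that had 10 UMIs of another type's markers, the natural killer list included, the glycolysis mean was -0.14 and the starvation mean -0.12, and with the mean of each cell's CPM the starvation value was -0.05. Of the 18 glycolysis and hypoxia genes, 1 lay above 0 in sgAzin2, with a median of -0.20 beside -0.01 over all genes, and 3 had an unadjusted p under 0.05 in edgeR, namely Aldoc and Pgam1, glycolytic enzymes, and Slc2a1, the glucose transporter GLUT1. None passed, with an edgeR adjusted p of 1 for each. There too, Asns, asparagine synthetase, was at -0.93 ± 0.32 (SE), Iars, an isoleucine tRNA synthetase, at -0.58 ± 0.21 (SE) and Cebpb at -0.77 ± 0.31 (SE), each with an edgeR adjusted p of 1. Slc6a6, a taurine transporter of the same family as Slc6a9, was at 0.33 ± 0.13 (SE) in sgSlc5a12 with an edgeR adjusted p of 1.

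To ask whether a target acted differently with and without anti-PD-1, the difference between its IgG and anti-PD-1 effects was fitted for each gene by edgeR. Of 60120 tests, 0 passed, 0%, and 2738 had an unadjusted p under 0.05. No second tool was run. The smallest adjusted p was 0.34, for Cep170b in sgAgxt2, followed by 0.44 for Ints7, a subunit of the Integrator complex, in sgSlc5a12. Ints7 was at 16.4, 14.1 and 14.6 CPM in sgSlc5a12 of the anti-PD-1 replicates, below sgNT at 26.0, 19.7 and 19.8 CPM, and at 40.7 CPM in IgG, above sgNT at 22.9 CPM. Its sgRNA effect was higher in IgG by 1.56 ± 0.37 (SE) on the log2 scale. With 1 IgG library, that library is assumed to vary like the others.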

How the data were processed

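CROP-seq libraries were prepared with 3′ single-cell chemistry and feature barcoding. The authors deposited, for each of 4 libraries, unnormalised UMI counts per gene and cell and a list of guide calls per cell. The submitters' processing notes name Cell Ranger 3.1.0, Seurat, R 3.6.3 and mm10, while the gene annotation used for counting is not stated in any source used here. The members, gene lists and tests were chosen with earlier results of these data known.

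Cells with exactly 1 called guide and at most 10% mitochondrial counts were kept, which leaves out cells called with several guides. No doublet caller was run. Counts were summed per target and library where at least 10 cells were present, and per guide where at least 5 were. CPM values are these sums scaled to a common total. All targets were fitted together with edgeR 4.0.16 (quasi-likelihood test, Benjamini-Hochberg adjustment over all genes tested, threshold 0.05) in R 4.3.3, with library as a term. DESeq2 1.42.0 was an alternative, and the other alternatives are given in the closing section. Sums and intervals were computed in Python 3.11.15 with numpy 2.4.6, scipy 1.17.1 and pandas 2.3.3. Scripts were tested on simulated data.

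Genes were named by a rule. The first 10 called genes by p were taken if 1 cell held under 25% of the UMIs and every library had the same direction, and otherwise the 3 genes of smallest p. Also named were 12 fixed T cell genes, the gene of smallest p for the treatment difference, and pathway genes. Genes of other lists with an unadjusted p under 0.05, and gene lists set out by guide, were chosen after their values were seen. Guide sites were located in GENCODE M21 transcripts of GRCm38 with up to 2 mismatches allowed.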

Additional observations from a re-analysis of the deposited data

Results flagged for a closer look

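Of 108 measures compared, 18 had the IgG library on one side of sgNT and all 3 anti-PD-1 libraries on the other, 2 of them numbers of cells and 16 of 102 gene list levels. All are set against the same sgNT cells, so their number is not a number of treatment differences. Each rests on 1 IgG library, and the difference between treatments was not tested on the summed measure itself. Of the single guides of sgSds and sgAgxt2, and of the single genes of the lists, 0 passed edgeR's test between treatments.

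Log2 ratios of cells per guide to sgNT were 0.15 in IgG against -1.74 to -0.06 under anti-PD-1 for sgSds, and 0.0807 against -1.16 to -0.20 for sgAgxt2. Both depend on the count used: over all barcodes that list a guide, sgAgxt2 in IgG was at -0.0573, on the same side as under anti-PD-1, and against the median nontargeting guide, sgSds in replicate 3 was at 0. The precursor exhausted list stood at -0.21 in IgG against 0.29 to 0.35 under anti-PD-1 in sgSlc5a12, and at 0.76 against -0.54 to -0.28 in sgAzin2. Effector cytokines and chemokines were at 0.16 against -0.64 to -0.28 in sgAgxt2 and at 0.46 against -0.50 to -0.13 in sgAzin2. The cytotoxic granule list in sgSds was at 0.14 against -0.32 to -0.11. Genes of DNA replication in sgSlc6a9 were at -0.15 against 0.16 to 0.20.

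Interferon response genes were at -0.10 in IgG against 0.19 to 0.32 under anti-PD-1 in sgSlc6a9, and at -0.0744 against 0.20 to 0.48 in sgSds. The aspartate list was at -0.16 against 0.08 to 0.18 in sgSlc6a9 and at 0.0654 against -0.15 to -0.01 in sgSds, and the serine, glycine and folate list in sgSds was at 0.0811 against -0.74 to -0.11. The starvation response was at -0.0873 against 0.07 to 0.13 in sgSlc5a12, at 0.0889 against -0.11 to -0.001 in sgAgxt2 and at 0.0108 against -0.17 to -0.08 in sgAspa. Glycolysis and hypoxia genes in sgAspa were at 0.0421 against -0.32 to -0.04, and the polyamine list in sgAzin2 at -0.0106 against 0.01 to 0.07.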

How the results depend on the processing

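The call of Wnt4 in sgAgxt2 was the least stable result. No gene (0) was called in sgAgxt2 without a filter beyond 1 UMI, by DESeq2, with only the 6 targets and sgNT in the fit, with anti-PD-1 libraries only, with sums per guide in limma's voom fit with the guide as a random block, or without cells of other types, whether or not the natural killer list was used. Leaving out each library in turn gave 0 to 0 genes in sgAgxt2, 0 to 2 in sgSlc6a9 (Tcrg-C2 and Trgv2 without anti-PD-1 replicate 3), 0 to 1 in sgSds (Rpl39l without anti-PD-1 replicate 3 or without IgG) and 0 in the other targets. In sgSds, 1 gene was also called without the filter and with anti-PD-1 libraries only (Rpl39l) and 1 by DESeq2 (Aspm). In sgSlc5a12, 1 gene (Ahr) was called by DESeq2 and with only the 6 targets in the fit, and in sgSlc6a9, 1 gene (Gzmf) without cells of other types. Rpl39l in sgSds was at 5.08 without IgG, and at -1.86 without anti-PD-1 replicate 1, a value set by the fit since 0 UMIs were then left in sgSds. The cause of these changes was not tested.

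Over the gene list levels, 10 values moved by more than the spread between libraries. With the mean of each cell's CPM, T cell identity was -0.0017 in sgAspa and 0.095 in sgAzin2, the starvation response -0.049 in sgAzin2, and the aspartate list 0.065 in sgSds and 0.017 in sgAspa. Without cells of other types, identity was 0.096 in sgAzin2, the cytotoxic list -0.27 in sgAgxt2, mitosis -0.59 in sgSds and the polyamine list -0.075 in sgSds. With the natural killer list left out of that filter, the lactate list was -0.068 in sgAgxt2. The filter on cells of other types with the natural killer list left out was chosen after the data were seen. Depth limits Slc6a9 and the other target transcripts, and 10 to 23 cells per library limit sgSds, sgAgxt2 and sgAspa in replicates 1 and 2. Pairing by replicate number was not used: the single IgG library shares a number with 1 anti-PD-1 library only. Library was a term in the fits against sgNT, and guide numbers were also fitted with replicates 1 and 2 as a batch.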
